A study of Mus musculus with 23 samples.

Results

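Methylated DNA was captured from the heart and the spleen of mice that drank acetate, and the captured reads were set against each other at every gene start. The members were chosen by diet label alone: 3 heart and 4 spleen libraries of the acetate group, 7 of the 23 libraries of the series, joined over 41388 gene start windows of 3 kb, of which 33982 passed the filter on low counts and were tested. All libraries came from male C57Bl/6 mice that were housed singly. The acetate mice received 100 mM magnesium acetate in their water. The comparison groups ate a control diet without resistant starch or a high fibre diet rich in it, and every group kept its regimen from 3 weeks ahead of minipump surgery until the study ended. What the minipumps delivered, the age of the mice and whether the libraries of a group came from separate mice are not stated in the sources used here. The p-values therefore reflect how these libraries vary, which may be technical. Heart tissue was left ventricle, per the labels. The series asks whether fibre or acetate alters DNA methylation in either organ. The comparison here gives the difference between the organs under acetate, set beside that in the libraries of the other diets.

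Methylation of cytosine in CG dinucleotides (CpG) is the main DNA methylation of mammals. It is copied at each cell division, is low at most CG-rich gene starts, and differs between cell types, above all at genes of development and of cell identity. Here sheared DNA was enriched with MethylMiner, which captures fragments through a methyl-CpG binding protein, so a window gains reads with the number of methylated CpG it holds. No unenriched library was used. The reads give captured DNA in one organ relative to the other, not a methylation level, and they give no expression. Both organs are mixtures of cells, so a different mix of cells and a different methylation per cell cannot be told apart. The values below are CPM, reads per M (mega) reads of a library after TMM scaling, and the log2 fold change is heart minus spleen, so a positive value means more captured DNA in heart.

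The windows with the widest differences show what kinds of gene start are involved. The stretches below are the 250 bases ahead of the RefSeq start of the first 3 genes of each direction in the ranking that had a RefSeq promoter sequence, on build GRCm38.p6, written 5′ to 3′ along the gene's strand with each CG in capitals. Tyw5 (a hydroxylase of tRNA wybutosine synthesis), Rhoh (a small GTPase of blood cells) and Pgap1 (an enzyme that trims GPI anchors) had more captured DNA in heart.
Tyw5, chr1:57406675-57406924, minus strand: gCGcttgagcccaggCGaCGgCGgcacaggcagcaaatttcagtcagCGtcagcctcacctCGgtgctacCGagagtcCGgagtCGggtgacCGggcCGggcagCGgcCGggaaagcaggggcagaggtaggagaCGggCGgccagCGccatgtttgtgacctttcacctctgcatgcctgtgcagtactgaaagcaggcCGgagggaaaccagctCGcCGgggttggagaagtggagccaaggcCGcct
Rhoh, chr5:65863334-65863583, plus strand: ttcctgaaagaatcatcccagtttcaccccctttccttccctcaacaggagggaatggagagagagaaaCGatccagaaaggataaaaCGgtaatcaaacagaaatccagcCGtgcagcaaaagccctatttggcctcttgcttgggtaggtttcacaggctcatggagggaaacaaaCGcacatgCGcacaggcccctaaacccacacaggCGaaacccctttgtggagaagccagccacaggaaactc
Pgap1, chr1:54557685-54557934, minus strand: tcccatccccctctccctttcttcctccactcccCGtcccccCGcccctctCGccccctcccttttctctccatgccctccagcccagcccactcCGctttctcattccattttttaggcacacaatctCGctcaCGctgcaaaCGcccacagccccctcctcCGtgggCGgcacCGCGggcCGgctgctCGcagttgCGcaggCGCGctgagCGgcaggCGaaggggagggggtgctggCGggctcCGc
Gfi1 (a zinc finger repressor of blood cell formation), Agap2 (a GTPase with an Arf GAP domain) and Hoxa5 (a homeobox factor of the HoxA cluster) had less.
Gfi1, chr5:107725806-107726055, minus strand: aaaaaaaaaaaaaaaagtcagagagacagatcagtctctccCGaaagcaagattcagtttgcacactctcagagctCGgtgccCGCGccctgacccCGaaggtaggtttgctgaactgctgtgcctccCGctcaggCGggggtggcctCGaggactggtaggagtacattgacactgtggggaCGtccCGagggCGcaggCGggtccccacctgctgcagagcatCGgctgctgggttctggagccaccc
Agap2, chr10:127078657-127078906, plus strand: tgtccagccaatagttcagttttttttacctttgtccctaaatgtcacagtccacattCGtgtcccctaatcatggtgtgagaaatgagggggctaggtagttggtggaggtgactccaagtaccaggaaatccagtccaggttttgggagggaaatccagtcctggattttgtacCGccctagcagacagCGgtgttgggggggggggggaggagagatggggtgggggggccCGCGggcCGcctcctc
Hoxa5, chr6:52204588-52204837, minus strand: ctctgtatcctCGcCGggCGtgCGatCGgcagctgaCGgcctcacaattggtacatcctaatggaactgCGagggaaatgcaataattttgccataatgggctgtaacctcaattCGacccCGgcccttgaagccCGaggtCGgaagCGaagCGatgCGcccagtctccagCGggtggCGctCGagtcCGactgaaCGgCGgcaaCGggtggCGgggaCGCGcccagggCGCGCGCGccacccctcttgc
The capitals number 20 in Tyw5, 6 in Rhoh, 20 in Pgap1, 13 in Gfi1, 6 in Agap2 and 28 in Hoxa5. The 300-base promoters, which add 50 bases after the start, hold 25, 9, 26, 16, 13 and 29 CG in this order. Over the 11 higher and 12 lower windows with the widest differences, CG copies in known promoters ran from 2 to 30 and from 2 to 29. CG-rich and CG-poor starts thus stood on both sides. CG, which reads the same on both strands, was present in 94.9% of the 300-base RefSeq promoters of tested windows, with a median of 12 copies. The counted windows are 3 kb long and their own coordinates are not part of the tables, so each stretch is the core of a gene start and not the whole counted region.

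The libraries of the organs differed in composition. Gm10800, a predicted gene made of satellite repeats, took 42.4%, 37.0% and 22.1% of counts in the 3 heart libraries and 54.6%, 51.9%, 52.9% and 48.2% in the 4 spleen libraries. The groups did not overlap (difference -18.05 percentage points, exact two-sided permutation p = 0.0286, the smallest that 35 splits allow, 0.0715 after adjustment over 5 library measures). The top 1% of windows took 44.5% ± 11.1 of heart counts and 63.4% ± 2.37 of spleen counts (SD, n = 3 and 4, exact permutation p = 0.0286, adjusted 0.0715). Total counts were 4.63 to 5.90 M (mega) in heart and 4.36 to 8.01 M in spleen, and the median count of a window was 26, 51 and 58 in heart and 14 to 21 in spleen. Windows without a read made up 13.7% ± 2.93 in heart and 18.2% ± 2.35 in spleen (exact permutation p = 0.0857). Heart library 1 stood apart from the other heart libraries: its log2 CPM had a mean correlation across windows of 0.92 with the other heart acetate libraries and 0.90 with the spleen acetate libraries, against 0.85 with spleen for the other heart libraries. At the windows with the widest tissue difference it lay on the heart side, as its values below show. Those windows were picked in a fit that included it, so this does not test whether it resembles the other heart libraries. Where leaving it out changed a call named below, the value without it is given.

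**Figure D1:**
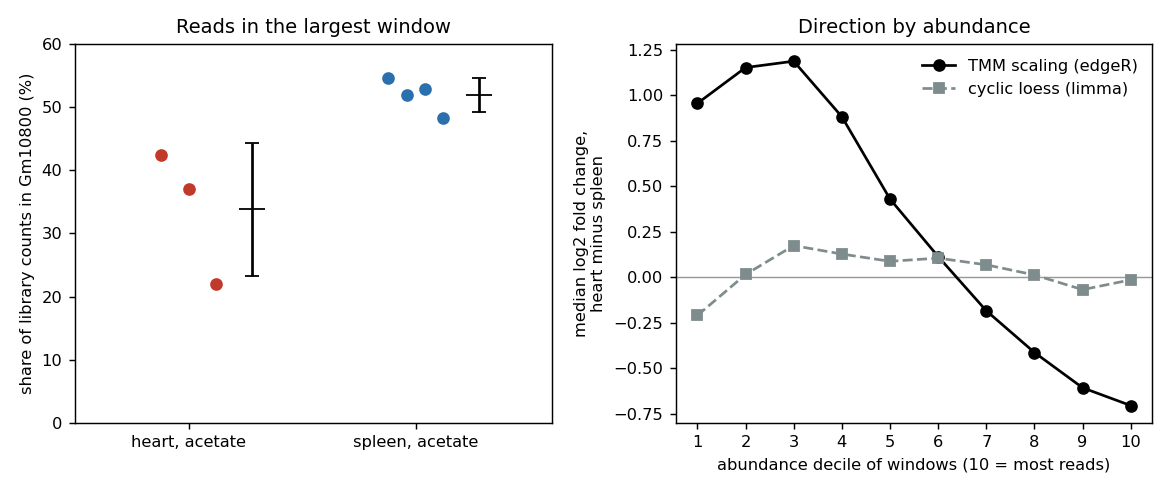
The left panel plots the percentage of each acetate library's counts that fell in Gm10800 (points, with mean and SD bars), and the right panel the median log2 fold change of windows sorted into 10 classes of abundance, under TMM scaling and after cyclic loess. Heart libraries lie between 22.1% and 42.4% and spleen libraries between 48.2% and 54.6%, while under TMM the median runs from 0.96 in the least abundant class to -0.70 in the most abundant one.

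Most gene start windows differed between the organs. Of 33982 tested windows, 21410 (63%) passed an adjusted p of 5%, 11554 (34%) with more captured DNA in heart and 9856 (29%) with less, and the median log2 fold change over all windows was 0.19. A 2-fold difference or more was called at 8337 windows higher in heart and 3638 lower. The 3 heart and 4 spleen libraries did not overlap at 47.8% of all tested windows and overlapped at 5998 of the called ones. Direction went with abundance: among the 10% of windows with fewest reads 37% were called higher in heart and 1.41% lower, and among the 10% with most reads 3.06% were higher and 76% lower. Per library, the log2 CPM of abundant minus scarce windows was 4.51, 3.00 and 3.09 in heart and 5.08, 4.54, 5.4 and 5.42 in spleen. Among these 3 heart and 4 spleen libraries the order of the values was not that of the share in Gm10800. Across diets, heart libraries on high fibre had 17.3% to 21.3% of counts in Gm10800 and values of 2.455 to 2.808. Those on the control diet had 36.8% to 50.05% and values of 3.325 to 3.845. The part of library composition in the trend was not tested. Cyclic loess, which removes any trend with abundance from each library, called 13707 windows (40.3%), 6569 higher and 7138 lower, with a median of 0.02. Scaling by library totals alone moved the median of all windows to 1.09 and the split to 23737 higher and 1353 lower. Directions below are therefore those under TMM, relative to the bulk of windows, with the loess counts given for each list. List counts are to be read beside the shares of all windows: 34% higher and 29% lower under TMM, 19.3% and 21% after loess. A list near these shares shows no direction of its own. Windows called by both edgeR and loess in the same direction numbered 9780 (28.8%), of which 4079 (12%) were higher and 5701 (16.8%) lower in heart, and 301 windows were called in opposite directions by edgeR and loess.

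Tyw5, Rhoh, Pgap1 and Cytip led the windows with more captured DNA in heart. Among windows of above-median abundance, the 11 named ones had log2 fold changes from 2.187 to 2.80. Tyw5 had 11.2, 17.1 and 20.6 CPM in heart and 2.76, 2.46, 1.35 and 1.90 CPM in spleen, a 6.96-fold difference (log2 2.80, SE 0.27, adjusted p = 5.31e-10). Rhoh had 15.7, 13.8 and 11.5 CPM in heart and 1.18, 0.82, 1.62 and 2.93 CPM in spleen (log2 2.76, SE 0.24, adjusted p = 7.86e-11). Every heart library was above every spleen library at both windows. Cytip, a partner of cytohesin that limits leukocyte adhesion, had 27.3, 28.9 and 28.03 CPM in heart and 4.14, 3.28, 8.36 and 2.59 CPM in spleen (log2 2.60, SE 0.20, adjusted p = 5.45e-12). Pgap1 (2.60), Cd55 (2.41, a complement regulator on the cell surface), Hpgds (2.26, the blood cell prostaglandin D synthase), Epsti1 (2.22, an interferon-induced gene), Atp6v0d2 (2.22, a proton pump subunit of osteoclasts and macrophages) and Gpr56 (2.22, an adhesion receptor also found on cytotoxic lymphocytes) followed on the log2 scale. The others were Smek2 (2.23, a subunit of protein phosphatase 4) and Orc3 (2.187, a subunit of the origin recognition complex). The RefSeq start of Orc3 lies 15 bases from that of Rars2, whose window had a log2 fold change of -0.36, so how reads were divided between overlapping windows bears on both. The same limit holds for Tyw5, with another start 408 bases away. It also holds for windows named below: Gbx2 (0 bases), Gcc1 (1880), Runx3 (269), H2-DMa (225), Dlg4 (1775) and Parp12 (124).

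Among the named windows of above-median abundance, those with less captured DNA in heart differed by more, with log2 fold changes from -5.08 to -2.89 for the 12 named ones. Gfi1 had 1.18, 2.03 and 1.12 CPM in heart and 58.4, 50.6, 39.4 and 86.0 CPM in spleen, 33.8 times more in spleen (log2 -5.08, SE 0.32, adjusted p = 2.74e-14). Agap2 had 6.27, 4.54 and 3.86 CPM in heart and 130.8, 112.4, 110.0 and 213.3 CPM in spleen (log2 -4.82, SE 0.30, adjusted p = 2.25e-14). Hoxa5 had 1.77, 3.59 and 1.73 CPM in heart and 57.8, 48.4, 59.6 and 73.9 CPM in spleen (log2 -4.49, SE 0.23, adjusted p = 1.46e-16, the smallest of all windows). At these 3 windows each heart library held no more than 6.27 CPM, and spleen library 4 had the highest value. The others were Hoxaas2 (-3.53, an antisense RNA gene of the HoxA cluster), Gimap1os (-3.41, on the opposite strand to Gimap1, a GTPase gene of lymphocytes), Gbx2 (-3.37, a homeobox factor of the hindbrain border), Tenc1 (-3.32, a tensin of focal adhesions), Gcc1 (-3.10, a Golgi coiled-coil protein), Hoxa4 (-3.06), Itpripl2 (-2.97), Adcy4 (-2.91, an adenylyl cyclase) and Mex3b (-2.89, an RNA-binding protein). All 23 named windows of both directions had groups without overlap, were called also after cyclic loess and without heart library 1, and were called in the same direction in the libraries of the control and high fibre diets. Since they were picked for their size, this is a description of them.

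**Figure D2:**
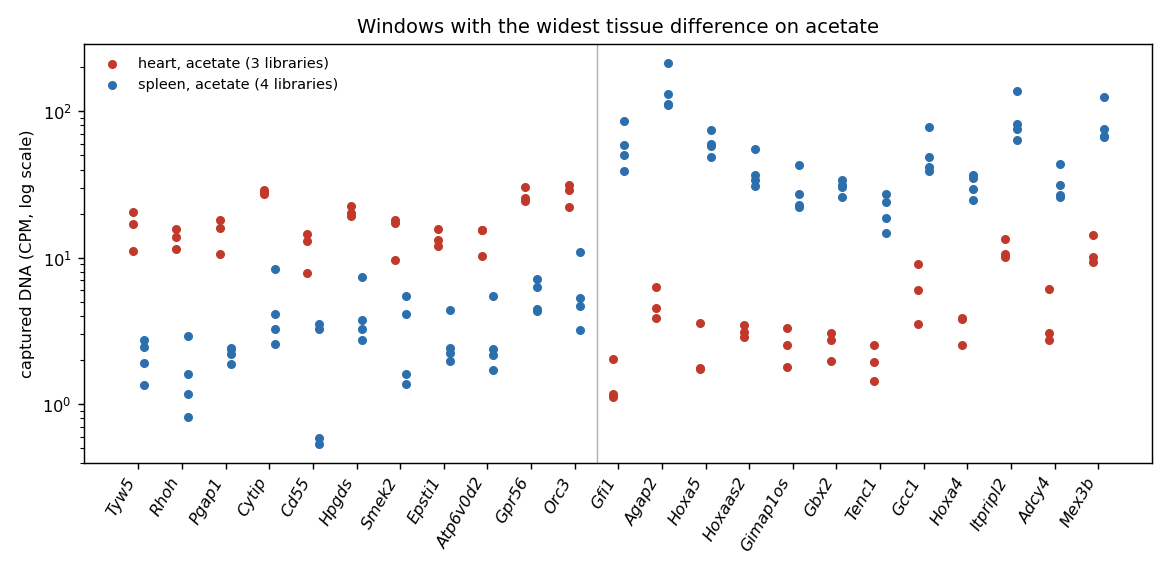
Captured DNA (CPM, log scale) in each heart (red) and spleen (blue) acetate library for the 11 named windows higher in heart (left) and the 12 lower in heart (right). Heart and spleen points do not overlap at any of the 23 genes, and Gfi1, Agap2 and Hoxa5 show the widest gaps.

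Hox genes encode the homeobox factors that set position along the body axis, and they sit in 4 clusters. Of 29 tested Hox windows 9 were called lower in heart and 1 higher, with a median of -0.40, against 29% lower and 34% higher over all windows. After cyclic loess 18 were lower and 0 higher, with a median of -1.37. Without heart library 1 the counts were 7 lower and 4 higher, with a median of -0.23. Hoxb9 and Hoxd3 were then no longer called (adjusted p = 0.0524 and 0.151), and Hoxd8, Hoxd12 and Hoxd13 were called higher at 0.61, 0.96 and 1.23. Under TMM, 8 of the 9 lower calls lay in the HoxA and HoxB clusters. On chromosome 6, Hoxa4 (3.41 ± 0.75 CPM in heart and 31.4 ± 5.43 in spleen), Hoxa5 (2.36 ± 1.06 and 59.9 ± 10.5) and Hoxa6 (1.78 ± 0.35 and 9.59 ± 1.96, log2 -2.26) were lower in heart (SD, n = 3 and 4). Hoxa7, the next gene in the cluster, had a log2 fold change of 0.39 and was not called (adjusted p = 0.100). Hoxa9, beyond it, was called higher in heart at 1.93 but not after loess (0.69, adjusted p = 0.165), with 1.80 ± 0.89 CPM in heart and 0.28 ± 0.09 in spleen. Hoxa10 was lower at -0.95. On chromosome 11, Hoxb3 had 12.2, 10.4 and 8.94 CPM in heart and 64.1, 59.1, 62.8 and 79.1 CPM in spleen (log2 -2.65, SE 0.15, adjusted p = 2.29e-15), and Hoxb2 (-2.17), Hoxb6 (-1.78) and Hoxb9 (-1.03) were also lower. In the HoxC cluster 0 of 7 tested windows were called under TMM, and in the HoxD cluster only Hoxd3 was, at -0.54 (adjusted p = 0.0401). After loess 5 HoxC windows were called lower, Hoxc4 (-1.57), Hoxc8 (-1.32), Hoxc9 (-1.43), Hoxc12 (-1.37) and Hoxc13 (-1.86), and in HoxD so was Hoxd9 (-1.36), while Hoxd3 was not (adjusted p = 0.0836). The median abundance of the tested Hox windows was 1.28 log2 CPM, against 2.99 for all, and 10 further Hox windows did not pass the filter.

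**Figure D3:**
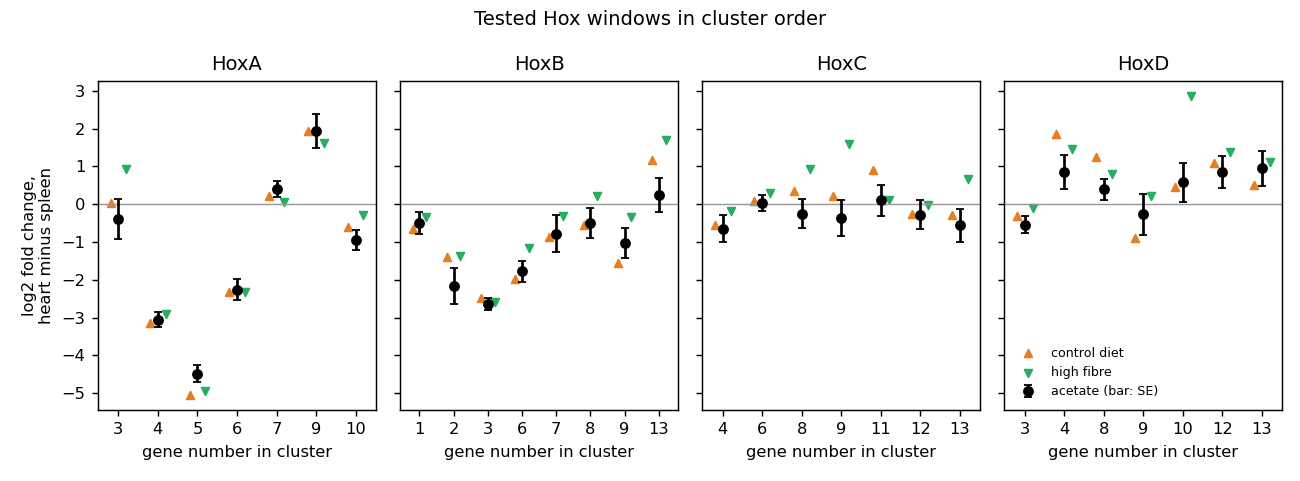
Log2 fold change, heart minus spleen, of each tested Hox window in cluster order (circles with SE for acetate, triangles for the control diet and for high fibre). Hoxa4 to Hoxa6 and Hoxb2, Hoxb3 and Hoxb6 fall below 0 on all 3 diets, with Hoxa5 near -4.49 on acetate.

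Windows of leukocyte signalling genes were mostly called higher in heart. In the list of leukocyte signalling and adhesion genes, 30 of 50 tested members were called higher and 6 lower, with a median of 0.69, and 30 and 2 after loess (median 0.82). Over all tested windows 34% were called higher and 29% lower, and 19.3% and 21% after loess. Besides Cytip, its smallest p-values belonged to Dock8 (1.98), an exchange factor for Cdc42, and Rac2 (1.98), the Rac GTPase of blood cells. Dock8 had 16.9, 13.8 and 11.8 CPM in heart and 3.75, 4.10, 2.70 and 2.76 CPM in spleen, without overlap. Of 23 B cell genes 12 were higher and 3 lower (median 0.46, and 14 and 3 after loess, median 0.70). Pou2af1, a coactivator of immunoglobulin genes, had 19.8, 15.7 and 18.6 CPM in heart and 5.13, 7.11, 5.93 and 6.04 in spleen (log2 1.53, SE 0.18, adjusted p = 2.28e-08). Cxcr5, the receptor that guides B cells into follicles, followed at 1.51 and Ms4a1, which encodes CD20, at 1.62. The markers Cd79a (0.70) and Pax5 (0.43) were called higher as well, with overlapping groups for Cd79a. Without heart library 1, Cd79a was at 0.46 and not called (adjusted p = 0.0683). Of 31 T and NK cell genes 14 were higher and 7 lower (median 0.39, 12 and 3 after loess). Icos (2.09) and Ctla4 (1.32), receptors that raise and restrain T cell activation, were higher and the kinase Zap70 lower (-1.33). The T cell markers Cd3e, Cd3g, Cd4 and Lck were not called, at 0.17, 0.53, 0.21 and -0.11. After loess Cd3e (0.63, adjusted p = 0.00229) and Cd4 (0.77, adjusted p = 9.37e-06) were called higher.

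Myeloid genes were mixed, with 13 of 30 higher and 8 lower (median 0.40, 8 and 4 after loess). Clec4f, a lectin of Kupffer cells, was higher at 1.92, and Cebpe, a factor of granulocyte maturation, and Cd14, a coreceptor for lipopolysaccharide, were lower at -1.43 and -1.17. Among the myeloid markers Spi1 (0.78) and Lyz2 (1.04) were higher and Csf1r was not called (0.22), although it was after loess (0.66, adjusted p = 0.000144). Blood cell transcription factors held windows at both ends: 16 of 35 were higher and 15 lower, with a median of 0.11 that lay below that of all windows under TMM and above it after loess (0.37, 13 higher and 10 lower). Runx3, a factor of T and NK cells, had 7.45, 9.56 and 8.74 CPM in heart and 56.6, 46.2, 45.0 and 79.7 CPM in spleen (log2 -2.68, SE 0.21, adjusted p = 5.45e-12), and Fli1, an ETS factor of blood and endothelium, was lower at -2.36. Of 22 erythroid and platelet genes 5 were higher and 7 lower (median 0.06, 5 and 5 after loess, median 0.03). Tfrc, the transferrin receptor, had 7.65 CPM in heart library 1, 21.5 and 18.1 in the others and 1.62 to 5.92 in spleen (log2 1.98), Car2 was higher at 1.79, and Tal1, a master factor of blood formation, was lower at -1.37. The erythroid marker Klf1 was lower at -1.04, and Gata1 (0.11) was not called, although loess called it higher (0.55, adjusted p = 0.0013).

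Antigen presentation and chemokine genes also split. Of 23 MHC and antigen processing genes 8 were higher and 9 lower (median -0.08, and 5 and 6 after loess). Over all windows 34% were higher and 29% lower, so the list as a whole shows little direction of its own. H2-DMa, which loads peptides onto class II molecules, had 23.1, 14.2 and 13.9 CPM in heart and 69.3, 47.6, 49.4 and 76.6 CPM in spleen (log2 -1.85). Its RefSeq start lies 225 bases from that of Brd2, at -1.0. H2-Ob, which restrains that loading, was higher at 2.25, and so was the protease gene Ctss at 2.13. Of 33 chemokine and receptor genes 15 were higher and 9 lower (median 0.35, 10 and 4 after loess, median 0.24), with Ccl17 at 1.86 and Ccl4 at 2.31. Spleen stroma genes gave 6 of 15 higher and 4 lower (median 0.06, 4 and 4 after loess, median 0.20). Cxcl13, the ligand of Cxcr5, was higher at 1.74. Ltbr was called lower at -0.86 under TMM, was not called after loess (-0.25), and was at 0.07 with library totals.

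Sarcomere genes, which encode the contractile apparatus of heart muscle, were mostly called lower in heart. Of 30 sarcomere and Z-disc genes 19 were called lower and 5 higher, with a median of -0.74, and after loess 14 were lower and 3 higher (median -0.37). Their median abundance was 4.29 log2 CPM. In the nearest of the 10 abundance classes (median 4.13), 53.1% of windows of any kind were lower under TMM, and 26.9% after loess. Mybpc3, cardiac myosin-binding protein C, had 15.7, 10.4 and 9.55 CPM in heart and 65.3, 49.5, 52.1 and 100.6 CPM in spleen (log2 -2.51, SE 0.24, adjusted p = 4.79e-10). Heart library 1 was the highest of the heart libraries and still far below spleen. Tnni3, cardiac troponin I, had 10.2, 7.41 and 6.40 CPM in heart and 26.8, 25.4, 22.7 and 25.5 CPM in spleen (log2 -1.66), and Des, the intermediate filament desmin, was lower at -1.41. Of the 6 cardiomyocyte markers, Myh6 (-1.38), Tnnt2 (-1.0), Tnni3 and Mybpc3 were lower, Nkx2-5 was higher at 1.12 (0.20 and not called after loess) and Actc1 was not called at -0.04, with 1.87 ± 0.52 CPM in heart and 1.91 ± 0.55 in spleen. After loess Actc1 was called lower (-1.02, adjusted p = 0.0189). These windows are in DNA that every cell carries and do not count cardiomyocytes.

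Of 23 genes of heart fuel metabolism 14 were lower and 2 higher (median -0.62, and 11 and 1 after loess, median -0.45). Cpt1b, which carries fatty acids into muscle mitochondria, had 28.4, 20.0 and 19.9 CPM in heart and 80.7, 64.3, 79.0 and 101.7 CPM in spleen (log2 -1.85, SE 0.17, adjusted p = 2.48e-10). The fatty acid dehydrogenase gene Acadm (-1.33) and Ldhb, the lactate dehydrogenase subunit of heart (-1.42), were also lower. Ion channel and calcium handling genes gave 11 of 27 lower and 10 higher (median 0.01, but 9 and 3 after loess, median -0.05), with Jph2, which joins sarcoplasmic reticulum to the cell membrane, at -2.0, the potassium channels Kcnj11 at -1.86 and Kcnh2 at -1.59. Cardiac transcription factors went the other way, with 12 of 20 higher and 7 lower (median 0.80), although 4 and 4 after loess (median 0.45). Tbx18, a factor of the epicardium and sinus node, had 11.4, 7.05 and 7.82 CPM in heart and 1.58, 0.82, 2.16 and 1.38 CPM in spleen (log2 2.32), while Srf (-1.59) and Hopx (-1.52) were lower.

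Of 15 smooth muscle and pericyte genes 8 were lower and 2 higher (median -0.61, 6 and 0 after loess), led by Tagln, transgelin (-2.18), and Abcc9, a channel subunit of pericytes and smooth muscle (-1.52). Endothelial genes gave 8 of 20 lower and 7 higher (median -0.10, and 4 and 7 after loess, median -0.01), beside 29% lower and 34% higher over all windows. Emcn was higher at 2.05, Tie1 and Nos3 were lower at -1.06 and -1.05, and the markers Pecam1 (-0.37) and Cdh5 (-0.73) were lower. Pecam1 had the opposite sign after loess and was not called (0.23, adjusted p = 0.0858). Fibroblast and matrix genes gave 7 of 20 lower and 4 higher (median -0.08), and 3 lower and 6 higher after loess (median 0.16). Dcn, the proteoglycan decorin, was higher at 1.33. Fn1 was lower at -1.04 and the marker Col1a1 at -0.83 under TMM, but not after loess (-0.17 and -0.21). Ddr2, at -0.73, was at -0.08 and not called after loess and at 0.20 with library totals. Pdgfra, the other fibroblast marker, was not called (-0.07), but was called lower after loess (-0.85, adjusted p = 0.0389).

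**Figure D4:**
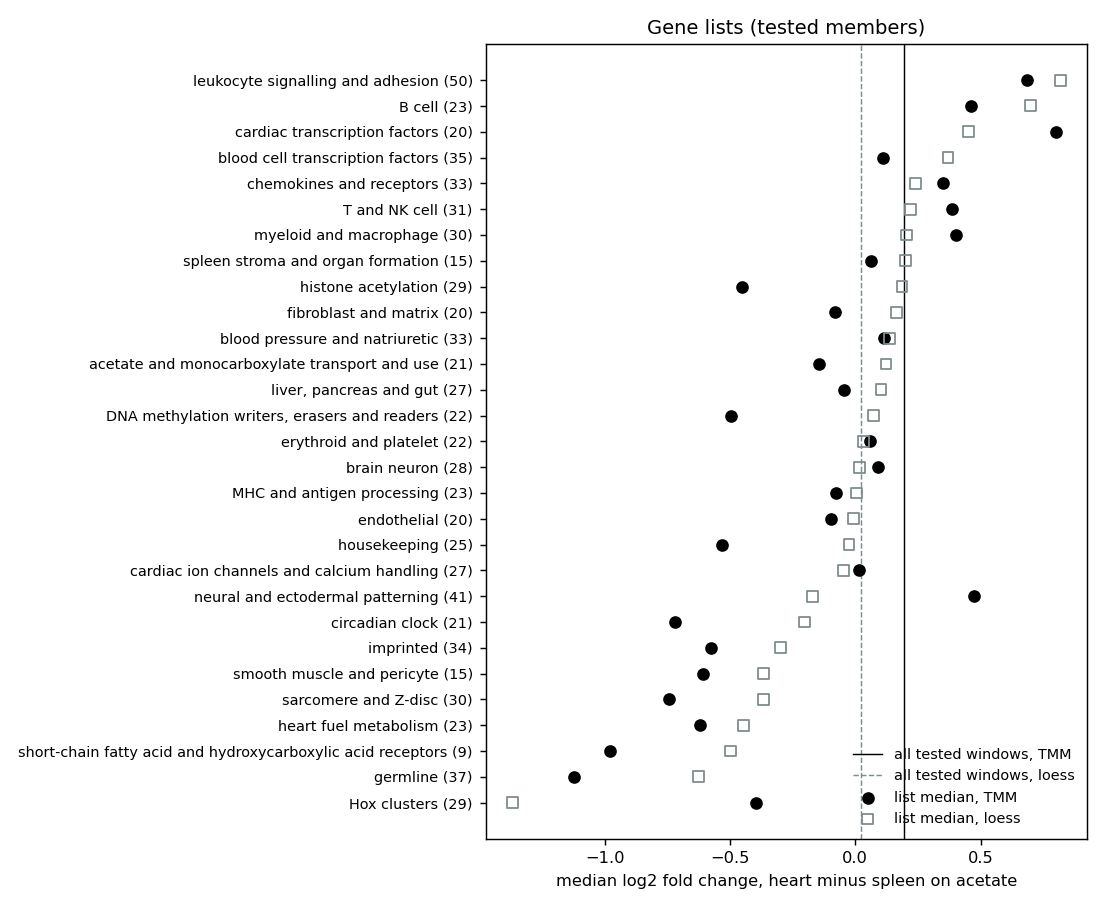
Median log2 fold change, heart minus spleen on acetate, of each gene list under TMM (circles) and after cyclic loess (squares), with the number of tested members in brackets and lines at the medians of all tested windows (0.19 and 0.02). Leukocyte signalling genes lie to the right of both lines, and germline, sarcomere, fuel metabolism and Hox genes to the left of both.

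Acetate acts on cells through receptors and is taken up and used by carriers and enzymes. Of 9 tested genes for short-chain fatty acid and hydroxycarboxylic acid receptors 6 were lower in heart and 3 higher (median -0.98), and after loess 6 were lower and 0 higher (median -0.50). Their median abundance was 4.68 log2 CPM. In the nearest of the 10 abundance classes (median 4.74), 66.5% of windows of any kind were lower under TMM, and 32.4% after loess. Ffar2, a receptor for acetate, had 34.5, 24.6 and 24.2 CPM in heart and 68.1, 58.5, 56.4 and 78.4 CPM in spleen (log2 -1.24, SE 0.18, adjusted p = 1.02e-06). Ffar3, its neighbour in the family, had 23.1, 15.2 and 13 CPM in heart and 47.2, 36.9, 53.7 and 46.4 CPM in spleen (log2 -1.45, SE 0.19, adjusted p = 1.39e-07). The lactate receptor Hcar1 was lower at -1.36 and the receptor for hydroxybutyrate and butyrate Hcar2 at -0.92. Heart and spleen libraries did not overlap at these 4 windows, which was also so at 47.8% of all tested windows. With library totals as the scale, Ffar2 was at -0.33 and Hcar2 at -0.02, and neither was called. For acetate and monocarboxylate transport and use, 7 of 21 genes were lower and 5 higher (median -0.15, 4 and 1 after loess, median 0.12). The lactate exporter Slc16a3 (-1.55) and Bsg, the chaperone of such transporters (-1.77), were lower, as was Acat2 (-1.03). Slc16a1, the widely used monocarboxylate carrier, was higher at 1.53 but overlapped between organs and was not called after loess (0.76, adjusted p = 0.226). Acss2, which turns acetate into acetyl-CoA, had 6.27, 7.41 and 8.74 CPM in heart and 10.7, 8.75, 7.82 and 8.46 CPM in spleen and was not called at -0.23, while library totals put it at 0.71.

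Genes of the chromatin machinery depended on the scale. Of 22 DNA methylation writers, erasers and readers 13 were lower and 4 higher under TMM (median -0.50), but 4 and 2 after loess, with a median of 0.07 on the other side of 0. Their median abundance was 4.77 log2 CPM, and in the nearest abundance class 66.5% of windows of any kind were lower. The de novo methyltransferase gene Dnmt3a was called lower under TMM (-0.57, adjusted p = 0.00112) and higher after loess (0.24, adjusted p = 0.00774). The maintenance methyltransferase gene Dnmt1 was not called at -0.32 and Tet2, a demethylation enzyme gene, was not called at 0.51, with opposite signs after loess (0.21 and -0.44). Dnmt1 was called lower without heart library 1 (-0.45, adjusted p = 0.0105), spleen library 2 (-0.35, adjusted p = 0.0468) or high fibre spleen library 1 (-0.32, adjusted p = 0.0488). It was also called lower without the 5 largest windows (-0.36, adjusted p = 0.0326) and with limma-voom (-0.34, adjusted p = 0.0371). Apobec2, a cytidine deaminase family gene of muscle, was lower at -1.04 and also after loess (-0.58). Tet1 (-0.88) and Zbtb38 (-0.76) were called under TMM but not after loess (-0.15 and -0.01) or with library totals, which put them at 0.03 and 0.16. Of 29 histone acetylation genes 15 were lower and 7 higher (median -0.45), and 7 and 12 after loess (median 0.19). Their median abundance was 4.48 log2 CPM. In the nearest abundance class (median 4.74), 66.5% of windows of any kind were lower under TMM, so the lower calls show no direction of the list's own. After loess 32.4% of that class were lower and 26.7% higher. The mitochondrial sirtuins Sirt4 (-1.53) and Sirt5 (-1.25) were lower and the deacetylase gene Hdac10 higher (1.51), and each was also called after loess. Hdac4 was lower at -0.51 under TMM and had the opposite sign after loess (0.23) and with library totals (0.42).

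Of 33 blood pressure and natriuretic genes 13 were lower and 12 higher (median 0.12), and after loess 4 were lower and 7 higher (median 0.14). The sodium channel subunits went apart, Scnn1a at -1.27 and Scnn1g at 1.57, and Ednra, an endothelin receptor, was higher at 1.71. Of 21 circadian clock genes 15 were lower and 2 higher (median -0.72, and 7 and 3 after loess, median -0.20). Their median abundance was 4.58 log2 CPM, and in the nearest abundance class 66.5% of windows of any kind were lower. Nr1d1, which encodes the clock repressor REV-ERB alpha, had 24.5, 13.9 and 10.9 CPM in heart and 75.6, 62.6, 74.7 and 96.7 CPM in spleen (log2 -2.27, SE 0.21, adjusted p = 4.79e-10). Cry2 was lower at -1.30. The early response gene Egr1 was lower at -1.43, with 21.2, 16.5 and 14.1 CPM in heart and 43.6, 41.3, 35.1 and 63.7 CPM in spleen.

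Germline and imprinted genes are known for methylation at their starts in body tissues. Germline genes were mostly called lower in heart. Imprinted genes were called lower under TMM about as often as windows of like abundance. Of 37 germline genes 31 were lower in heart and 1 higher (median -1.12), and after loess 27 and 3 (median -0.62). This was also among the most abundant lists, with a median of 4.99 log2 CPM, where windows of any kind were mostly lower. In the nearest abundance class (median 4.74), 66.5% of windows were lower under TMM, and 32.4% after loess. Taf7l, a testis subunit of TFIID, had 15.1, 11.2 and 10.7 CPM in heart and 50.7, 47.6, 49.6 and 87.0 CPM in spleen (log2 -2.26), and Dppa3 (-1.96), a protector of maternal methylation, and Fkbp6 (-1.86), a gene of meiosis, followed. Of 34 imprinted genes 18 were lower and 7 higher (median -0.57, 14 and 3 after loess, median -0.30), with Cdkn1c, a cell cycle inhibitor, at -2.19, Mcts2 at -1.82 and Snrpn at -1.29. The median abundance of imprinted genes was 4.24 log2 CPM. In the nearest abundance class (median 4.13), 53.1% of windows of any kind were lower under TMM, and 26.9% after loess. Neural and ectodermal patterning genes had 14 of 41 higher and 2 lower (median 0.47), but 8 and 10 after loess with a median of -0.17. Over all windows 34% were higher under TMM. The median abundance of this list was 1.61 log2 CPM, and in the nearest abundance class (median 1.77) 66.6% of windows of any kind were higher. The list thus showed no lean towards heart of its own under TMM. After loess 7.77% of that class were higher and 14% lower. Lhx6 (1.92) and Otx1 (1.87), homeobox factors of the forebrain, were higher on both scales. Among lists with no tie to either organ, housekeeping genes gave 13 of 25 lower and 9 higher (median -0.53, and 8 and 4 after loess, median -0.02), with Tubb5 at -2.22 and Gapdh at -1.68. Liver, pancreas and gut genes gave 8 of 27 lower and 6 higher (median -0.05, and 3 and 2 after loess, median 0.10), with Cpa1 at -1.04, Serpina1a called higher on 0 to 1.97 CPM in spleen and 2.75 to 5.79 in heart, and Vil1 at -0.85, which was at -0.12 and not called after loess and at 0.05 with library totals. The brain neuron list, which also holds glial genes such as Gfap, gave 8 of 28 genes lower and 8 higher (median 0.09, and 6 and 5 after loess, median 0.02). Nrgn was at -1.60, Dlg4 at -1.39 and Gfap at -1.05. The liver and brain counts stand beside 29% lower and 34% higher over all windows.

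The lists' distances from all windows kept their sign across linear scales, but small distances changed in size. Erythroid and platelet genes, for one, were at -0.136 under TMM and -0.245 with library totals. With library totals the medians of all windows and of the lists moved up together, and only germline (-0.23) and fatty acid receptor genes (-0.08) kept a median below 0. Relative to all windows, sarcomere genes were at -0.94 under TMM, -0.91 with library totals and -0.39 after loess, germline genes at -1.32, -1.32 and -0.65, Hox genes at -0.59, -0.70 and -1.39, and leukocyte signalling genes at 0.49, 0.53 and 0.80. Lists whose median lay on the other side of all windows after loess were DNA methylation, histone acetylation, acetate transport and use, fibroblast, blood cell transcription factors, blood pressure, spleen stroma, erythroid, liver, and neural patterning.

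Direction was also compared between promoters of different CG content. A RefSeq promoter was matched to 48.6% of tested windows. With an observed over expected CpG ratio below 0.35, 40% of windows were higher in heart and 22% lower, and with a ratio of 0.65 or more 29% were higher and 34.4% lower. Windows were also divided into 3 equal classes of abundance. Among the least abundant windows, 60.1% of those with a ratio below 0.35 and 50% of those at 0.65 or more were higher in heart. In the middle class the same shares were 42.9% and 41.2%, and in the top class 58.3% and 56.4% were lower. Crowding of gene starts went with fewer reads: windows with another start within 300 bases had a median of 8.33 reads in heart and 2.5 in spleen, and those with none within 6000 bases had 71 and 36.75. The sources used here do not state how reads in overlapping windows were counted, and its part was not tested.

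The X chromosome set heart and spleen apart, a pattern picked out after its values had been seen. In the middle of 3 abundance classes, 424 X windows had a median log2 fold change of -0.40, against 0.26 for 8575 autosomal windows, and 45.3% of them were called lower in heart, against 19.5%. Per library, the median log2 CPM of these X windows minus that of autosomal windows was -0.36, -0.59 and -0.52 in heart and 0.17, 0, 0.13 and 0.26 in spleen. Every heart library lay below every spleen library (difference -0.63). Since the pattern was picked from these data, no p-value is given for it. Leaving out any 1 acetate library kept the difference between -0.70 and -0.58. The same difference was -0.72 on the control diet and -0.82 on high fibre, in other libraries of the series. X windows were also lower in heart in the top class (-0.95 against -0.53) and, relative to autosomes, in the bottom class (0.84 against 1.11). The share of matched reads on X was 1.44%, 1.84% and 1.86% in heart and 1.401% to 1.562% in spleen, so it did not follow the medians.

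**Figure D5:**
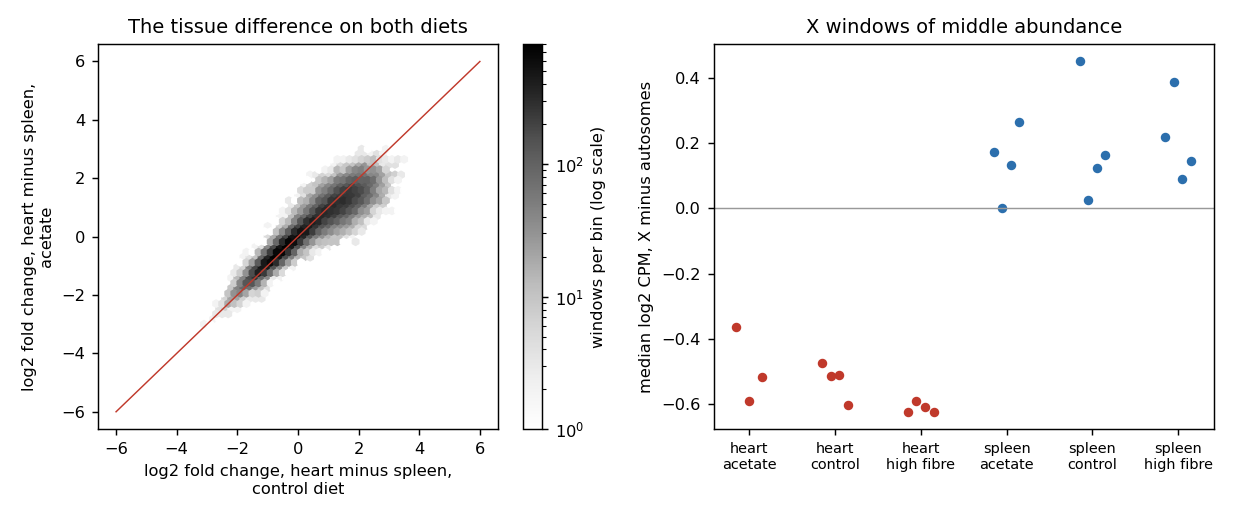
The left panel bins all tested windows by their log2 fold change, heart minus spleen, on the control diet (x) and on acetate (y), with the line of equal values and grey for the number of windows per bin on a log scale. The right panel plots, for each library, the median log2 CPM of X windows minus that of autosomal windows in the middle abundance class: all heart libraries (red) lie below 0 and all spleen libraries (blue) at or above 0.

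The difference between the organs on acetate was set against that on the other diets, which used other libraries. All 3 comparisons came from the same fit, with shared scaling and spread, so their overlap is not an independent replication. Heart against spleen was called at 72.7% of windows on the control diet (40% higher and 32.7% lower in heart) and 80.7% on high fibre (45.1% higher and 35.6% lower), with 4 heart libraries each against 3 on acetate. Of the windows called higher in heart on acetate, 10494 (90.8%) were also called higher on the control diet, where they made up 77.2% of such calls, and of those lower 9375 (95.1%), 84.3% of such calls. For high fibre the shares were 93.9% and 96.2%. On all 3 diets 10064 windows were called higher and 9136 lower in heart, and 409 (1.91% of the acetate calls) were called on acetate alone. Across the 33982 windows the log2 fold changes on acetate and on the control diet had a correlation of 0.93, and on acetate and high fibre 0.92, as descriptions over windows that share library composition within an organ.

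Whether the difference between the organs itself changed with acetate was tested window by window. Against the control diet 0 of 33982 windows (0%) passed adjustment, and the smallest adjusted p in edgeR was 0.415. An unadjusted p under 0.05 occurred at 1553 windows, and cyclic loess and DESeq2 also called 0. Parp12, an interferon-induced ADP-ribosyltransferase, had 10.4, 9.33 and 9.95 CPM in acetate heart and 1.38, 4.92, 1.89 and 2.24 in acetate spleen (log2 1.86), against 3.60 on the control diet, where spleen had 0.22 to 0.98 CPM. Cybb, the catalytic subunit of the phagocyte oxidase, had a difference of 1.14 on acetate and 0.18 on control, Cst12 of -0.11 and -0.84, and Hs3st5 of 1.47 and -0.06. Fbxw24 was at 0.98 and 3.65, and Slc22a19 at 0.87 and 3.17. None of these 6 changes passed adjustment.

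Against high fibre 1 window (0.00294%) passed in the main edgeR fit, and 6752 had an unadjusted p under 0.05. DESeq2 called 174 windows and edgeR with the replicate block 3808, so this count depended on the fit. Wnk1, a kinase that regulates salt transport, had 39.4, 62.4 and 54.9 CPM in acetate heart and 36.9, 44.8, 33.7 and 43.2 in acetate spleen, where the groups overlapped. On high fibre it had 68.0 to 80.6 CPM in heart and 20.2 to 28.8 in spleen, without overlap. The difference was 0.40 on acetate and 1.57 on high fibre, a change of -1.17 (adjusted p = 0.0408), and -1.55 after loess (adjusted p = 0.00415). Rpl10a-ps2, a ribosomal protein pseudogene, was at -1.0 on acetate and -2.06 on high fibre, Clpsl2 at -0.46 and -1.30, and the kinase gene Cdk18 at -0.54 and -1.36, all short of adjustment. The same held for Matr3, a nuclear matrix protein gene, at 0.46 and 2.76, and for the ubiquitin ligase gene Mib1 at 1.43 and 3.35. On high fibre the heart libraries gave 17.3% to 21.3% of their counts to Gm10800, below each of the acetate heart libraries (22.1% to 42.4%). The count of windows called here ran from 0, as without heart library 1, to 935 without spleen library 4. It differed from 1 in 21 of the 23 fits that left out a library, so it was unstable. The part of library composition in it was not tested.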

How the data were processed

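The authors deposited counts: raw reads per 3 kb gene start window and library, 1 table per organ, not normalized or pooled, as the values and the labels show. Per the submitters' processing notes, build GRCm38 was used with BWA 0.7.10, bcl2fastq 2.19.1.403, edgeR 3.16.5 and featureCounts 1.5.1. How windows are centred and how duplicate, multiply aligned or overlapping reads were counted is not given in the sources used here. The tables were joined by row name. Windows were tested with edgeR 4.0.16 (R 4.3.3, quasi-likelihood test) over all 23 libraries in 6 groups of organ by diet, with TMM scaling, filterByExpr at a minimum count of 10, a prior count of 2 and Benjamini-Hochberg adjustment at 5% over all 33982 tested windows. All adjusted p-values in the text are from it unless loess (limma 3.58.1) is named. The edgeR fit was also run on simulated counts in which few windows differed between the acetate groups. In the data 63% of windows were called and direction went with abundance, so that run does not test the calls in this setting. Library measures had exact two-sided permutation tests, adjusted over 5 measures.

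Alternatives were DESeq2 size factors, library totals, the 5 largest windows left out, cyclic loess, no filter, DESeq2 1.42.0, voom, the 7 acetate libraries alone, a replicate block, and each of the 23 libraries left out. Named genes were the 12 windows per direction with the largest change among called windows of above-median abundance, the 3 members of each list with the smallest p, a fixed set of 10 genes, and 3 windows per direction with the smallest p for each changed difference. Predicted, Rik, microRNA, clone and placeholder names and the 95 symbols found more than once were skipped. Some genes chosen by this rule are not reported here. Cell type markers, the X chromosome, Gm10800, neighbours and gene families lie outside this rule, and the last 4 were picked after their values were seen. The comparison and the 29 lists (817 of 823 genes found) were chosen with earlier results of these data known. Gene positions and promoters came from RefSeq on GRCm38.p6, matched for 77.2% of windows, 30385 by symbol and 1578 by synonym.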

Additional observations from a re-analysis of the deposited data

Results flagged for a closer look

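In 4 spleen acetate libraries, 1 library lay far from the other 3 for 10 of 125 values checked (8%), where chance alone gives about 1 in 20. Spleen library 3 had 21.7% of windows without reads, against 16.7% to 17.5% in the others. Spleen library 4, which had the most reads, was high at Mex3b (124.3 CPM, others 66.7 to 75.2), Acadm (68.9, others 47.7 to 50.7), Sirt5 (62.0, others 44.6 to 47.0), Taf7l (87.0, others 47.6 to 50.7) and Rpl10a-ps2 (23.8, others 17.5 to 18.4). Spleen library 1 was high at Ms4a1 (4.93 CPM, others 2.70 to 3.01), Lhx6 (10.1, others 5.39 to 5.74) and Serpina1a (1.97, others 0 to 0.17). Hs3st5 had 0 CPM in spleen library 3 and 1.73 to 1.91 in the others. The heart group, with 3 libraries, was not checked in this way. At Wnk1 the difference between the organs was smaller on acetate than on high fibre by 1.17 on the log2 scale (-1.17, adjusted p = 0.0408 in edgeR), as a test of the difference itself.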

How the results depend on the processing

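Calls for heart against spleen on acetate kept within 1.5 times of the main number under every alternative but these: cyclic loess gave 13707 in all and 6569 higher in heart, and library totals gave 23737 higher and 1353 lower. Leaving out single libraries gave 17420 to 23321 calls, 9001 to 12907 higher and 8419 to 10414 lower. The difference changed against control at 0 windows in every fit (0 to 0 with a library left out). Against high fibre, called at 1 window, it changed at 3442 with library totals, 5 without the filter, 174 with DESeq2 and 3808 with the replicate block. With a library left out it changed at 0 (as without heart acetate library 1) to 935 (without spleen acetate library 4). The count differed from 1 in 21 of these 23 fits. The cause was not tested. Library measures kept their sign, heart minus spleen: Gm10800 -22.34 to -12.18 points, top 1% -23.52 to -12.71 points, windows without reads -6.22 to -3.37 points, totals -1.39 to -0.18 M, and totals outside the 5 largest windows 0.31 to 1.11 M.

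The title numbers 11, 12 and 17 occur in both organs, but the sources used here do not say that they name mice. Correlations of same-numbered deviations were -0.04, 0.37 and -0.11 on acetate, 0.25, 0.14, 0.05 and -0.02 on control and -0.06 to 0.13 on high fibre. Of these 11 pairs 5 correlated best with their own number (1 on acetate, 3 on control and 1 on high fibre), so the numbers did not establish a pairing. With the replicate block 16671 windows were called, 8014 higher and 8657 lower, and the 7 acetate libraries alone gave 16567.

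Of the named genes, loess turned the sign of Tet2 (-0.44), Dnmt1 (0.21), Hdac4 (0.23) and Dnmt3a (0.24). Library totals turned Tet1 (0.032), Vil1 (0.050), Ltbr (0.068), Zbtb38 (0.16), Ddr2 (0.20), Dnmt3a (0.34), Hdac4 (0.42), Dnmt1 (0.59) and Acss2 (0.71). With the replicate block, DESeq2 or no filter the 108 named genes kept direction and call. Low counts limit spleen most, with a median of 14 to 21 reads a window.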

Other observations

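Gene families were counted after their values had been seen. Over all tested windows 34% were called higher in heart and 29% lower, and 19.3% and 21% after loess. Of 1226 tested olfactory receptor windows 56.5% were called higher in heart and 8.16% lower (median 1.09), and the median was 0.05 after loess. Vomeronasal receptors gave 203 of 452 higher and 25 lower, immunoglobulin segments 111 of 219 and 16, and T cell receptor segments 51 of 99 and 9, with loess medians of -0.16, -0.01 and 0.05. These are windows of few reads, where most windows were higher in heart under TMM. Clustered protocadherins, cell adhesion genes whose promoters are chosen at random in neurons, gave 22 of 24 lower in heart and 0 higher (median -1.09), and 15 lower and 0 higher after loess (median -0.50). Their median abundance was 4.70 log2 CPM, and in the nearest abundance class 66.5% of windows of any kind were lower under TMM. Ribosomal protein pseudogenes gave 107 of 203 lower and 31 higher (median -0.53), and 90 and 15 after loess (median -0.38). Reads of pseudogenes can align to more than 1 copy, so their counts are uncertain.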
